A study of Mus musculus with 4 samples.

Results

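Cells of mouse embryoid bodies that had spent their last 16 h in hypoxia were compared with cells of embryoid bodies of the same age kept in normoxia. The comparison held every cell barcode of the normoxic and the hypoxic day 8 library that had at least 500 detected genes and at most 15% of its unique molecular identifiers (UMIs, each counting 1 captured RNA molecule) in mitochondrially encoded genes. These were 6513 of the 13808 cells that passed the same filter in the 4 libraries of the series, 3168 normoxic and 3345 hypoxic. Embryoid bodies are floating aggregates in which embryonic stem cells, here of the mouse line R1, differentiate without a fixed direction into cells of all germ layers. The normoxic library came from embryoid bodies grown for 8 d in normoxia, and the hypoxic library from embryoid bodies grown for 7.33 d in normoxia and then for 16 h in hypoxia. The other libraries came from 10 d of normoxia and from 8 d of normoxia followed by 48 h of hypoxia. No source used here gives the oxygen level of the hypoxic culture. Each library held dissociated and strained cells of embryoid bodies, prepared with 10x Genomics 3' chemistry, and each condition had 1 library, so library and condition cannot be told apart and no test between them was possible. Differences below are descriptions of these libraries, and their intervals cover counting error only.

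Cells sense oxygen through hydroxylases. The prolyl hydroxylases of the Egln family use oxygen to mark the alpha subunit of hypoxia-inducible factor (HIF) for destruction through the Vhl ubiquitin ligase, and the asparaginyl hydroxylase Hif1an blocks its transactivating end. When oxygen is short the alpha subunit persists, pairs with Arnt and binds short DNA elements built on the core ACGTG or GCGTG near genes of glycolysis, glucose and lactate transport, angiogenesis and mitochondrial turnover, and near genes of Egln enzymes themselves, which makes a feedback loop. Embryos develop at low oxygen, and this pathway is known to act in blood, vessel and heart formation.

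The normoxic library held 84938732 UMIs in kept cells, with a median of 23057.5 UMIs and 5395 genes per cell, and the hypoxic library held 78062472, with medians of 18839 and 4660. Mitochondrially encoded genes made up 3.82% of the normoxic and 2.01% of the hypoxic UMIs. The day 8 libraries had 1 barcode in common. Levels (CPM) are the UMIs of a gene, summed over all kept cells of a library, per 1000000 UMIs of that library, and log2 ratios are hypoxia over normoxia after adding 1 CPM to both. Such a sum cannot tell fewer cells of a type from less RNA per cell. R1 cells are pluripotent at the start, and the summed level of 9 pluripotency markers was 20.96 CPM in normoxia and 7.92 CPM in hypoxia, with all 9 under a mean of 5 CPM. Markers of mesenchyme (7120 and 7129 CPM) and erythroid cells (4586 and 4610 CPM) summed to nearly the same level in both libraries. Those of some other types did not. Epicardial or mesothelial markers summed to 299 CPM in normoxia and 618 CPM in hypoxia, and smooth muscle markers to 4173 and 5876 CPM. Macrophage markers summed to 93.5 and 47.5 CPM.

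A mean level of 20 CPM or more was reached by 6787 genes, and 116 of them (1.71%) were higher in hypoxia by 2-fold or more and 65 (0.958%) lower by as much, and the median log2 ratio was -0.09. With trimmed-mean scaling (TMM), which assumes that most genes do not differ, the split was 189 higher and 14 lower, and the median was 0.14. Of the 116 genes that were higher, 46 belonged to lists of known HIF targets or glycolytic enzymes, and none of the 65 lower genes did. TMM scaling moved ratios up nearly evenly, so it bears most on lists whose members were slightly lower. Its counts are given beside some lists and differed in others too, with 52 HIF targets at least 1.5-fold higher under it. The share of all genes past 1.5-fold was not computed under TMM scaling. Its list counts therefore have no such share to stand beside, and extra higher members are not a result about a list. The lists were chosen with earlier results of these data known, so this overlap is a description.

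Among genes that averaged 20 CPM or more, the highest ratio was that of an oxygen sensor. Egln3, a prolyl hydroxylase, was at 7.24 CPM in normoxia (95% Poisson interval 6.68 to 7.84) and at 62.2 CPM in hypoxia (60.4 to 63.9), a log2 ratio of 2.94. Egln1, the main prolyl hydroxylase of most tissues, was at 70.03 and 386 CPM, a log2 ratio of 2.44. Both feedback enzymes were thus several-fold higher in the hypoxic library. Egln2, the family member without this feedback, was at 44.1 and 38.2 CPM, a log2 ratio of -0.2. Transcripts of the HIF subunits themselves were mixed: Hif3a, which encodes HIF-3 alpha, was at 9.28 and 15.1 CPM (log2 ratio 0.64), Hif1a at 182 and 145 CPM (log2 ratio -0.32) and Epas1, which encodes the HIF-2 alpha subunit, at 13.8 and 7.78 CPM (log2 ratio -0.76). HIF alpha is controlled mainly through its protein, which these data do not measure. Arnt and Vhl had log2 ratios of 0.2 and 0.61, and Hif1an of -0.07. Across these 9 genes of 10 listed (Arnt2 missed the filter) 4 were at least 1.5-fold higher and 1 was at least 1.5-fold lower (none with TMM scaling), with a median of 0.2, against 4.56% and 10.3% of all 10696 genes that averaged 5 CPM or more. These shares of all genes apply to every later day 8 count at 1.5-fold on the CPM scale.

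**Figure D1:**
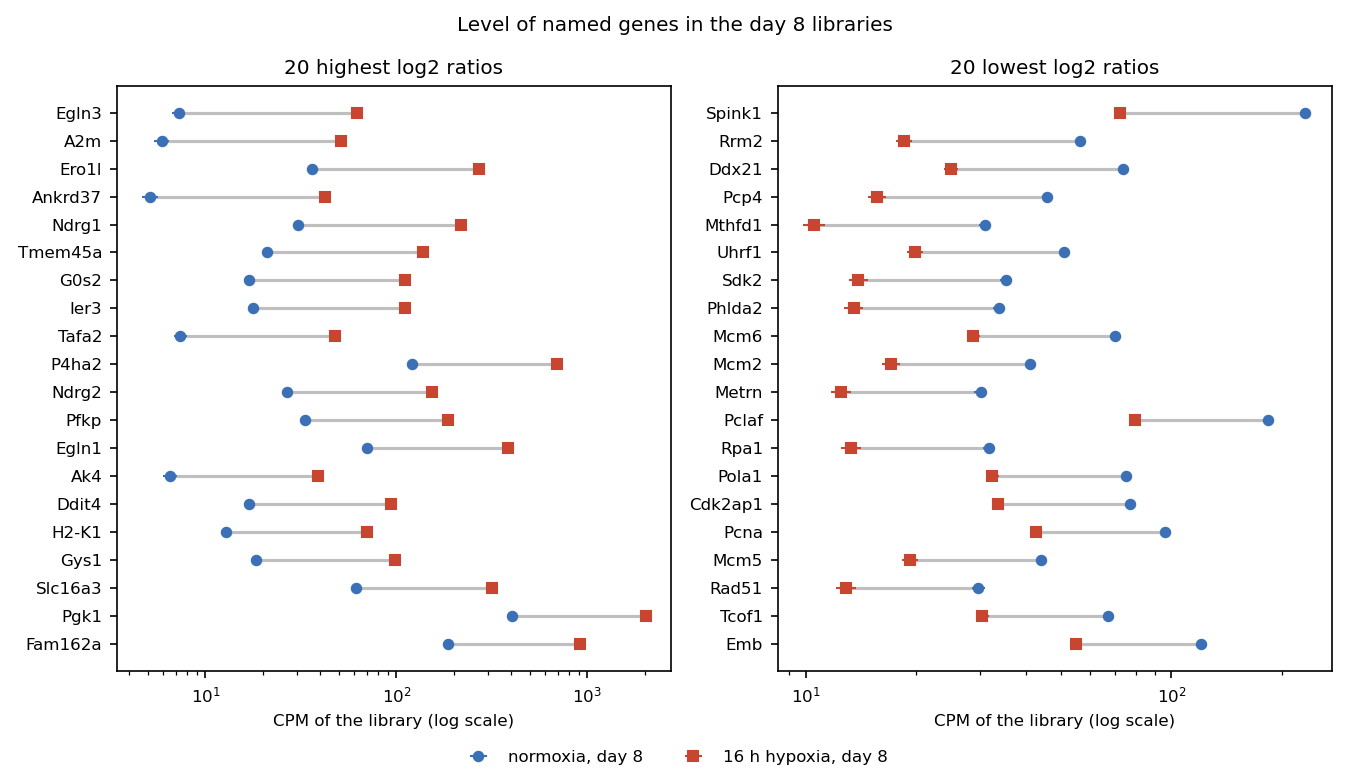
Levels of the 20 genes with the highest and the 20 with the lowest log2 ratio among the genes that averaged 20 CPM or more. Each gene has 1 point for the normoxic and 1 for the hypoxic day 8 library on a log CPM axis, with 95% Poisson intervals that cover counting error only; Egln3 went from 7.24 to 62.2 CPM and Rrm2 from 56.4 to 18.5 CPM.

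Among known HIF targets outside glycolysis, 59 of 68 listed genes passed the 5 CPM filter, and 47 of those were at least 1.5-fold higher and none at least 1.5-fold lower, with a median log2 ratio of 1.6 against -0.12 over all genes. Of the 59, 5 passed with 1 library below 5 CPM. Vegfa, the main angiogenic growth factor, was at 21.1 CPM in normoxia and 77.3 CPM in hypoxia (log2 ratio 1.82). Ndrg1, a stress-responsive differentiation gene, was at 30.5 and 218 CPM (log2 ratio 2.8). Ankrd37, an ankyrin repeat protein used as a hypoxia marker, was at 5.12 and 42.5 CPM (log2 ratio 2.83), and Fam162a, a mitochondrial protein linked to cell death, at 187 and 912 CPM (log2 ratio 2.28). These well expressed targets were separated by far more than the counting intervals. The highest ratios of the list belonged to genes that were low in normoxia. Ndufa4l2 was at 1.61 and 26.99 CPM (log2 ratio 3.42), and the stanniocalcins Stc1 (1.15 and 18.7 CPM) and Stc2 (1.98 and 21.8 CPM), secreted glycoproteins, had ratios of 3.19 and 2.94. Adm, which encodes the vasodilator peptide adrenomedullin, was at 3.56 and 18.96 CPM. Ppfia4 and Pfkfb4 were among the members with the lowest ratios, at -0.16 and -0.24.

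Sequence upstream of the genes was examined for the HIF core, ACGTG or GCGTG on either strand, in RefSeq promoters of build GRCm38.p6 that run from 250 bases before to 50 after each annotated start. The 4 promoters that follow belong to genes among the 20 highest and hold at least 2 cores, which are in capitals, and they are shown because they place the core close to the start of genes with some of the highest ratios. Fam162a (chr16:36071512-36071811, minus strand) had 6 cores, Ankrd37 (chr8:45999801-46000100, minus strand) had 4 with an overlapping pair, Pgk1 (chrX:106186850-106187149, plus strand) had 2 and Slc16a3 (chr11:120948817-120949116, plus strand) had 2, each read 5′ to 3′ on the strand of its gene.
Fam162a: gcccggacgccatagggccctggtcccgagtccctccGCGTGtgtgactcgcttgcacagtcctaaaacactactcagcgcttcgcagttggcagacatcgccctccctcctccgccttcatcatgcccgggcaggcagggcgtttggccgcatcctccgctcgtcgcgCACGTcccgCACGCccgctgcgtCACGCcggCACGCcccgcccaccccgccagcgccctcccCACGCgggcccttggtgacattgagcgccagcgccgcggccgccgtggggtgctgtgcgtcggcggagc
Ankrd37: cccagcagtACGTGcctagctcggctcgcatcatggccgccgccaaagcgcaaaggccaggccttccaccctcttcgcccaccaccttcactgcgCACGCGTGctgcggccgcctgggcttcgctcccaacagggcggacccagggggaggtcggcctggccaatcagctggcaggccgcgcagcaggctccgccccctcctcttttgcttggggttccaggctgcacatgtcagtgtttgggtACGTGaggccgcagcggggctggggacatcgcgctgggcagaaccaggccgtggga
Pgk1: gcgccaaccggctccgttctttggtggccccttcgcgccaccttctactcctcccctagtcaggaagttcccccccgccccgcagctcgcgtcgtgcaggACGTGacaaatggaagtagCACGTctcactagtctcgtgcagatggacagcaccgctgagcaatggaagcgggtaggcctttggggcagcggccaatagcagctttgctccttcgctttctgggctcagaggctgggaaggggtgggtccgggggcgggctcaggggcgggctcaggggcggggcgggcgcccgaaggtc
Slc16a3: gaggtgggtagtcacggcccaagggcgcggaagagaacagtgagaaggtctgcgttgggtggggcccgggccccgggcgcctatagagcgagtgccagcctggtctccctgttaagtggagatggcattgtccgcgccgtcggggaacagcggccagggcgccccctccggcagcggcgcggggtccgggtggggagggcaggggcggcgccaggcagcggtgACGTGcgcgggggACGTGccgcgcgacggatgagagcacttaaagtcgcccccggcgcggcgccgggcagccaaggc

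In contrast, Gys1 (chr7:45434589-45434888, plus strand) and Tafa2 (chr10:123263826-123264125, plus strand), which are also among the 20 highest, held neither core in this window, and nor did Pcna (chr2:132253131-132253430, minus strand), a replication gene among the 20 lowest. They are shown for comparison, all in lower case. The absence of the letters from these 300 bases says nothing of sites elsewhere.
Gys1: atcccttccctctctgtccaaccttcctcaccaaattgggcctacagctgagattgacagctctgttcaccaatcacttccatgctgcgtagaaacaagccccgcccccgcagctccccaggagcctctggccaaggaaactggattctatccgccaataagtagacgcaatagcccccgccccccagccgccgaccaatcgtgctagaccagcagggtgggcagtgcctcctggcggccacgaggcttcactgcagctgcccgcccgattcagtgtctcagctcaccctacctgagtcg
Tafa2: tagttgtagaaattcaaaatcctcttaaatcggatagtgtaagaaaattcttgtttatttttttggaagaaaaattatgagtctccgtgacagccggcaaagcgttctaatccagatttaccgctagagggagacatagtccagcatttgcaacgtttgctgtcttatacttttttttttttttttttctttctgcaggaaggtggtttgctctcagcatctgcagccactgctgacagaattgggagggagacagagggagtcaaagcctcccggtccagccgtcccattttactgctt
Pcna: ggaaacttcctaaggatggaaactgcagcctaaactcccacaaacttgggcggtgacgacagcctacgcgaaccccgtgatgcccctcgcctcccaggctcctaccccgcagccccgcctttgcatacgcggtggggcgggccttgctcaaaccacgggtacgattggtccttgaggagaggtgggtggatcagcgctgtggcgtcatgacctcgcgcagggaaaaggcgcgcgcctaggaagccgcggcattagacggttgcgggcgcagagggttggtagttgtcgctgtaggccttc

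Of the 20 highest genes, 17 had a RefSeq promoter here and 15 of these held the core in at least 1 promoter. For the 20 lowest, 17 had a promoter in this count and 10 of these held the core. Promoters on chromosome 18 were left out of these counts of named genes, so Spink1 and Tcof1, both among the lowest, were not counted. The share of promoters with a core was 43.8% over all 32851 promoters and 65.0% over promoters of genes with at least 20 CPM. It was 67.4% for the genes at least 2-fold higher (87 of 129 promoters, 89 of 116 genes matched) and 50% for those at least 2-fold lower (28 of 56, 47 of 65 genes matched). The core holds a CpG, and promoters of expressed genes are rich in it, so sites were also counted per CpG: 0.0576 for genes with at least 20 CPM, 0.0775 for the higher and 0.0518 for the lower genes. Median GC content was 62.0% in the expressed, 61.7% in the higher and 60.2% in the lower set. Presence of the core at all was therefore close to its level among expressed genes, and the higher set held more cores per CpG. A match to these letters is not evidence of binding.

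Of 6 glucose and lactate transporter genes 4 were at least 1.5-fold higher in hypoxia and 2 at least 1.5-fold lower (1 with TMM scaling). The glucose transporters Slc2a1 (344 and 798 CPM) and Slc2a3 (111 and 384 CPM) had log2 ratios of 1.21 and 1.79. The lactate exporter Slc16a3 was at 61.3 and 317 CPM (log2 ratio 2.35), and its chaperone Bsg at 835 and 2965 CPM (log2 ratio 1.83). Slc16a1, the monocarboxylate transporter of most tissues, differed the other way, with 37.6 CPM in normoxia and 23.3 CPM in hypoxia (log2 ratio -0.67). Emb, which encodes the alternative chaperone embigin, was at 120.3 and 54.9 CPM (log2 ratio -1.12). The monocarboxylate transporters and their chaperones thus differed in both directions. Both genes had higher levels in endoderm-like cells than in the pooled clusters, and the share of endoderm-like cells was lower in hypoxia. Within those cells Emb was at 1473 and 782 CPM and Slc16a1 at 270.3 and 158 CPM.

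Upper glycolysis, from glucose to triose phosphate, had 12 of 13 listed genes past the filter, of which 9 were at least 1.5-fold higher and none lower, with a median of 1.59. The phosphofructokinase isoforms differed among themselves. Pfkp, the platelet isoform, was at 33.2 and 186 CPM (log2 ratio 2.45) and Pfkl, the liver isoform, had a ratio of 2.01, whereas the muscle isoform Pfkm had a ratio of 0.07. The aldolases Aldoa and Aldoc had ratios of 1.4 and 2.23, and Aldoc, the brain isoform, started from 9.501 CPM. Hexokinase 1 was at 16.4 and 51.3 CPM (log2 ratio 1.59) and Hk2 at 127 and 234 CPM (log2 ratio 0.88). Lower glycolysis, from triose phosphate to lactate, split by isoform as well, with 6 of 11 genes at least 1.5-fold higher, 3 at least 1.5-fold lower and a median of 1.42. Pgk1, the phosphoglycerate kinase, was at 402 and 2017 CPM (log2 ratio 2.33), Gapdh at 1647 and 4403 CPM, and Ldha, which makes lactate from pyruvate, at 544 and 1837 CPM (log2 ratio 1.75). The heart form Ldhb was at 50.9 and 32.7 CPM (log2 ratio -0.62), and Pgam2 and Bpgm had ratios of -0.72 and -0.67, though with TMM scaling none of the 11 was 1.5-fold lower. The isoforms that were higher were the broadly expressed ones, with Pgam1, Eno1 and Pkm at 1.44, 1.65 and 1.68, while Eno2 and Eno3 were at 0.52 and 0.09.

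Pyruvate handling showed 1 gene apart from its neighbours. Pdk1, the kinase that shuts pyruvate dehydrogenase, was at 26.7 CPM in normoxia and 98.6 CPM in hypoxia (log2 ratio 1.85), and Pdk2 and Pdk3 had ratios of 0.04 and 0.09. Pdp1, the phosphatase that reverses the kinases, had a ratio of -0.68. The list of 13 genes had a median of -0.17, which turned to 0.04 with TMM scaling. Among respiratory chain subunits known to be exchanged in hypoxia, Ndufa4 and Ndufa4l2 differed in opposite directions, whereas the forms of subunit 4 did not. Cox4i2, the hypoxic form of subunit 4 of cytochrome oxidase, was at 5.02 and 32.97 CPM (log2 ratio 2.5), next to 888 and 951 CPM for the constitutive Cox4i1. Ndufa4 was at 688 and 446 CPM (log2 ratio -0.62), opposite in direction to its relative Ndufa4l2. Higd1a, a small protein of the respiratory supercomplexes, was at 178 and 735 CPM, and Lonp1, the protease known to degrade Cox4i1, had a ratio of 0.67.

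Mitochondrially encoded transcripts were lower as a group, with 10 of 13 at least 1.5-fold lower and a median of -1.14. They did not differ evenly: mt-Nd3 was at 1172 and 212 CPM (log2 ratio -2.46) and mt-Nd4l had a ratio of -1.44, but mt-Co1 and mt-Nd6 had ratios of -0.2 and -0.18. All of them are processed from long transcripts. Nuclear genes of the respiratory chain had a median of -0.29, with 12 of 95 at least 1.5-fold lower, near the 10.3% of all genes, led by Atp5k (-1.02) and the electron carrier Cycs (-0.9), and 2 at least 1.5-fold higher, Cox4i2 and Ndufa4l2, and with TMM scaling 3 were lower and 3 higher. The mitophagy receptors Bnip3 (57.1 and 266 CPM) and Bnip3l (184 and 519 CPM) had ratios of 2.2 and 1.49, and were the only 2 of 18 mitophagy genes at least 1.5-fold higher, while none was lower by that much. TMM scaling put 3 of the 18 that much higher and again none lower.

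**Figure D2:**
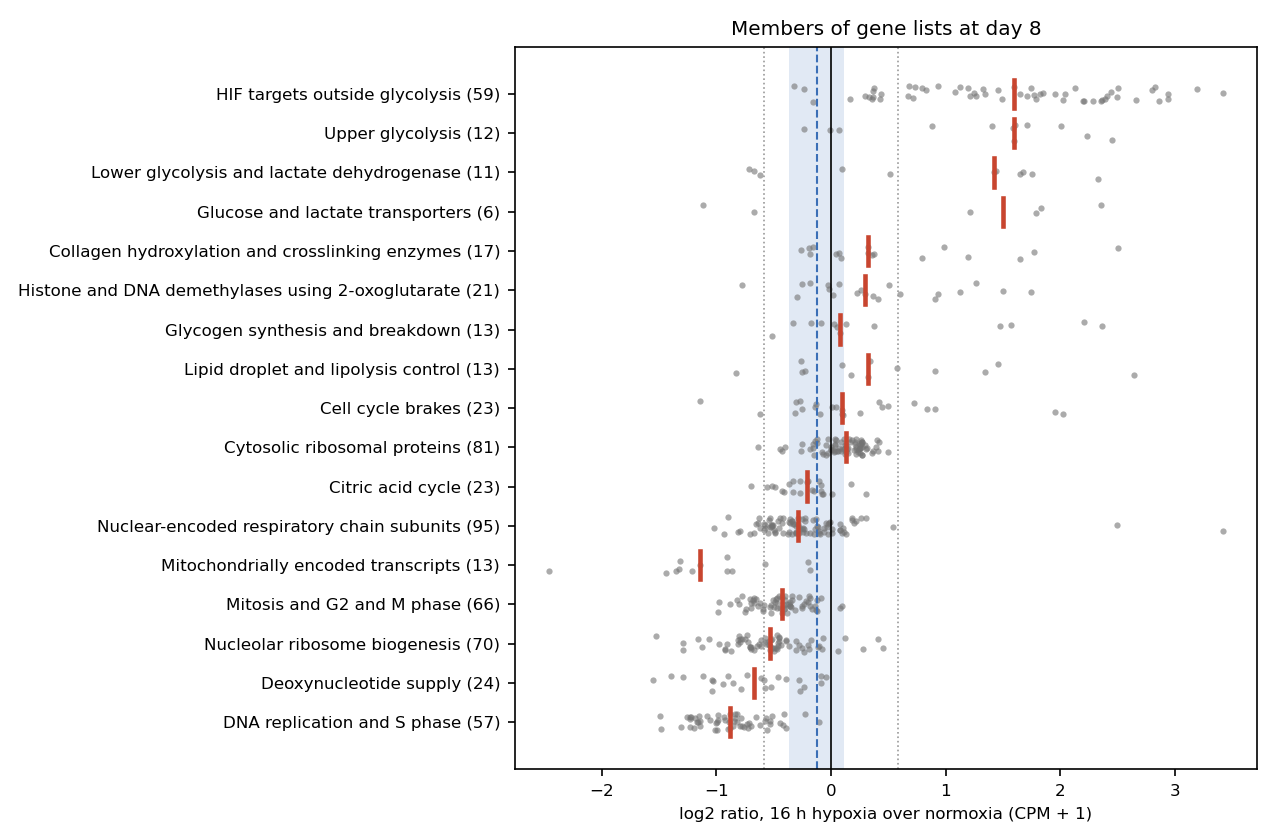
Log2 ratio of hypoxia over normoxia at day 8 for the members of each gene list that passed a mean of 5 CPM. Each point is 1 gene and each red bar the list median. The dashed line and the shaded band mark the median and the interquartile range of all genes with at least 5 CPM and the dotted lines a 1.5-fold difference; HIF targets (median 1.6) and both parts of glycolysis (medians 1.59 and 1.42) lie to the right of that median, and S phase genes (median -0.88) to the left.

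A few genes of each storage pathway were also higher. In glycogen metabolism 4 of 13 genes were at least 1.5-fold higher and none lower: the synthase Gys1 (18.4 and 98.4 CPM), the branching enzyme Gbe1 (26.4 and 126 CPM), the phosphoglucomutase Pgm1 (83.6 and 234 CPM) and the targeting subunit Ppp1r3b (4.07 and 14.03 CPM). Their log2 ratios ran from 1.47 to 2.36. The list as a whole had a median of 0.08, and 4.56% of all genes were at least 1.5-fold higher. In lipid storage G0s2, an inhibitor of triglyceride lipase, was at 16.9 and 111 CPM, and Hilpda, which inhibits the same lipase, at 15.95 and 45.5 CPM. The lipoprotein receptor Vldlr had a ratio of 1.35, and the fatty acid carrier Fabp3 one of -0.83.

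Other enzymes that use oxygen as a substrate were also among the higher genes. The collagen prolyl 4-hydroxylase subunits P4ha2 (121 and 691 CPM, log2 ratio 2.5) and P4ha1 (150.3 and 516 CPM, log2 ratio 1.77), the lysyl hydroxylase Plod2 (1.2) and the lysyl oxidases Lox (1.65) and Loxl2 (0.79) were at least 1.5-fold higher, as was P4hb (0.98). These were 6 of 17 collagen-modifying genes, and none was at least 1.5-fold lower, beside 4.56% and 10.3% of all genes. Of the collagen chains they modify 1 of 20 was at least 1.5-fold higher (Col12a1, 0.82), a share near the 4.56% of all genes. None was lower, with Col1a2 at 1217 and 915 CPM, and with TMM scaling 4 were higher and none lower. Ero1l, an oxidase that drives disulphide formation with oxygen as the acceptor, was at 36.3 and 269 CPM (log2 ratio 2.86), while the chaperones of the endoplasmic reticulum Hspa5 and Hyou1 had ratios of -0.29 and -0.6. Among 21 oxygen-dependent demethylases and related dioxygenases 7 were at least 1.5-fold higher, including Jmjd6 (32.1 and 110.0 CPM), the histone H3 lysine 9 demethylase Kdm3a (1.26), Kdm7a (1.5), Kdm4b (1.13) and Tet2 (0.94), and 1 was lower, the nucleolar Riox2 (-0.77). The shares of all genes were 4.56% higher and 10.3% lower. With TMM scaling, for which no such share was computed, 10 were higher and none lower.

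Genes of DNA replication were lower in hypoxia. On the CPM scale all 57 S phase genes that passed the filter had a log2 ratio below 0, 45 were at least 1.5-fold lower (36 with TMM scaling), and their median was -0.88. The helicase subunits Mcm2, Mcm5 and Mcm6 had ratios of -1.22, -1.15 and -1.26, and Mcm6 was at 69.98 and 28.7 CPM. The sliding clamp Pcna was at 96.1 and 42.6 CPM (log2 ratio -1.16), its partner Pclaf at 184 and 79.3 CPM, and Uhrf1, which recruits the maintenance DNA methyltransferase, at 50.8 and 19.9 CPM (log2 ratio -1.31). Nucleotide supply was lower with it. Rrm2, the regulated subunit of ribonucleotide reductase, was at 56.4 CPM in normoxia and 18.5 CPM in hypoxia (log2 ratio -1.55), and Tk1 and Dtymk, kinases of thymidine and its monophosphate, had ratios of -1.29 and -0.94. In this list 13 of 24 genes were at least 1.5-fold lower (10 with TMM scaling) and none higher. Mitosis genes differed less, with 20 of 66 at least 1.5-fold lower, beside 10.3% of all genes, and a median of -0.43. With TMM scaling 4 of them were lower by that much. The 23 listed proliferation brakes had a median of 0.09, and 5 of them were higher by 1.5-fold or more and 2 lower (8 and 1 with TMM scaling). The share of brakes that were lower was near the 10.3% of all genes, and 4.56% of all genes were higher by as much. Mxi1, an antagonist of Myc (25.4 and 106 CPM), the cyclin G family member Ccng2 (13.6 and 55.7 CPM) and the cyclin-dependent kinase inhibitor Cdkn1b (46.4 and 83.6 CPM) were higher, and Rbl1, a pocket protein whose own gene is expressed in S phase, was lower (-1.14).

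Genes of one-carbon metabolism, for which no list was used, differed in both directions. The cytosolic enzymes Mthfd1 (30.9 and 10.5 CPM, log2 ratio -1.47) and Shmt1 (16.2 and 5.55 CPM, log2 ratio -1.4), which make folate intermediates for nucleotides, were lower in hypoxia. The mitochondrial formate producer Mthfd1l was higher, with 46.5 and 149 CPM (log2 ratio 1.66), and Mthfd2 was at -0.05. The direction of Mthfd1l was shared by every named cell class, with 39.96 and 106 CPM in smooth muscle-like cells and 79.99 and 142 CPM in endoderm-like cells. In cardiomyocyte-like cells its ratio was 0.25 with a counting interval of -0.31 to 0.81, which leaves the direction unsettled there.

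Transcripts of ribosome biogenesis genes were lower in hypoxia. Of 70 nucleolar and ribosome biogenesis genes 29 were at least 1.5-fold lower and none higher, with a median of -0.53, and with TMM scaling 13 were lower, 2 higher and the median was -0.31. Ddx21, a helicase of ribosomal RNA transcription and processing, was at 73.6 and 24.95 CPM (log2 ratio -1.52). Bop1 and Rrp9, processing factors of the large and small subunit, had ratios of -1.16 and -1.29. The nucleolar chaperone Npm1 differed in the other direction, with 2059 and 2498 CPM. Ribosomal protein genes of the cytosol had a median of 0.13, and 1 of 81, Rps29 (-0.64), was at least 1.5-fold lower and none higher. TMM scaling put 6 of them at least 1.5-fold higher and none lower. Hosts of small nucleolar RNAs were mixed: Snhg1 was at 97.1 and 264 CPM and Snhg12 had a ratio of 1.08, whereas Snhg9 had one of -1.45. The 26 mTORC1 and AMPK regulators had a median of -0.02 (0.2 with TMM scaling). Of these, 3 were higher by 1.5-fold or more and 1 lower, beside 4.56% and 10.3% of all genes. Among them the mTORC1 inhibitor Ddit4 was at 16.95 and 93.2 CPM (log2 ratio 2.39) and the translation repressor Eif4ebp1 at 207 and 421 CPM.

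Stress pathways outside the HIF response were not uniformly higher. Among 23 targets of Atf4, the transcription factor of the integrated stress response, 6 were at least 1.5-fold higher and none lower. Of all genes 4.56% were higher and 10.3% lower by as much. The list median was 0.11, and it changed sign in at least 1 setting, down to -0.16. Atf4 itself was at 58.2 and 95.5 CPM, and Ddit3 had a ratio of 0.78. The heat shock list had 3 of 18 genes at least 1.5-fold lower, beside 10.3% of all genes, and none higher. The lower ones were the mitochondrial chaperonins Hspd1 (399 and 252 CPM) and Hspe1 (523 and 333 CPM) and Hsph1 (-0.91), and with TMM scaling 1 was lower and 1 higher. In the antioxidant list 3 of 24 were lower and none higher, a share of lower genes near the 10.3% of all genes: both glutamate-cysteine ligase subunits Gclc (27.3 and 13.8 CPM) and Gclm (-0.59), and the thioredoxin reductase Txnrd1 (101 and 54.05 CPM). With TMM scaling 2 of them were lower and 3 higher.

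Several genes of the 20 highest encode neither oxygen sensors nor metabolic enzymes. A2m, a secreted protease inhibitor, was at 5.89 CPM in normoxia (5.38 to 6.43) and 51.3 CPM in hypoxia (49.7 to 52.9), a log2 ratio of 2.92. Tmem45a, a membrane protein, was at 21.03 and 138 CPM, Ier3, an immediate early gene, at 17.7 and 110.5 CPM, Tafa2, a secreted chemokine-like protein, at 7.37 and 47.8 CPM, and Ndrg2 at 26.8 and 154 CPM. The class I histocompatibility gene H2-K1 was at 12.8 and 70.2 CPM (log2 ratio 2.37). The class II gene H2-Ab1, chosen after its value was seen, was at 2.26 CPM (192 UMIs) and 33.7 CPM (2633 UMIs), a log2 ratio of 3.41. Other histocompatibility genes, also chosen after their values were seen, differed less: H2-Q7 had a ratio of 1.66, B2m, the partner chain of class I, was at 85.2 and 88.99 CPM and H2-D1 had a ratio of 0.28. H2-Ab1 was higher in smooth muscle-like (0.339 and 31.4 CPM), endoderm-like (1.67 and 27.3 CPM) and pooled cells (1.33 and 32.2 CPM), cells that do not usually present antigen, and was not higher in erythroid-like cells (12.8 and 12.4 CPM). The class I H2 genes are near-identical copies of each other, so their counts are uncertain.

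At the lower end outside replication, Spink1, a trypsin inhibitor made by endoderm, was at 231 and 72.5 CPM (log2 ratio -1.66), the calmodulin regulator Pcp4 at 45.6 and 15.7 CPM (log2 ratio -1.48), the adhesion molecule Sdk2 at a ratio of -1.28, and the imprinted growth regulator Phlda2 at 33.7 and 13.5 CPM (log2 ratio -1.26). Markers of cardiomyocytes had a median of -0.63, with 5 of 9 at least 1.5-fold lower and none higher, beside 10.3% and 4.56% of all genes. Their summed level was 435 CPM in normoxia and 286 CPM in hypoxia. The cardiomyocyte-like cells numbered 33 and 21. At a clustering resolution of 0.5 the class given that name by its leading genes held 139 and 157 cells, and no cluster led by Rgs5 was found. Its hypoxic cells had a median of 14371 UMIs, the same as those of the Rgs5-rich cluster at resolution 1. The larger class is therefore not taken as a count of cardiomyocyte-like cells. Among signals of growth and vessels, the growth factor carrier Igfbp2 was at 336 and 697 CPM (log2 ratio 1.05) and the growth factor Igf1 had a ratio of -0.86, while Flt1, a receptor for Vegfa, was at 27.8 and 57.9 CPM (log2 ratio 1.03).

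Nearly all hypoxic cells had more hypoxia transcripts than most normoxic cells. To compare cells at 1 depth, each was thinned to 5000 UMIs, which left out 70 normoxic (2.21%) and 166 hypoxic cells (4.96%). The sum over 89 HIF target and glycolysis genes had a median of 39 UMIs per normoxic cell (interquartile range 31 to 53) and 132 per hypoxic cell (111 to 154). The 95th percentile of normoxic cells was 84 UMIs, and 93.8% of hypoxic cells lay above it (95% Clopper-Pearson interval 92.9% to 94.6%), or 94.5% without thinning. The distributions thus overlapped only in their tails. For HIF targets alone the medians were 17.5 and 56 UMIs, with 89.7% of hypoxic cells above the normoxic 95th percentile. S phase genes had medians of 9 and 4 UMIs, and 95th percentiles of 30 and 18, and 0.881% of hypoxic cells lay above the normoxic 95th percentile. Mitochondrially encoded genes had medians of 198 and 93 UMIs, and 42.6% of hypoxic cells lay below the normoxic 5th percentile of 85 (40.9% to 44.3%). The per-cell sums of nucleolar genes had medians of 29 and 27, but Npm1, which was higher in hypoxia, supplied 2059 of 6509.6 CPM of that sum in normoxia and 2498 of 5569 CPM in hypoxia.

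**Figure D3:**
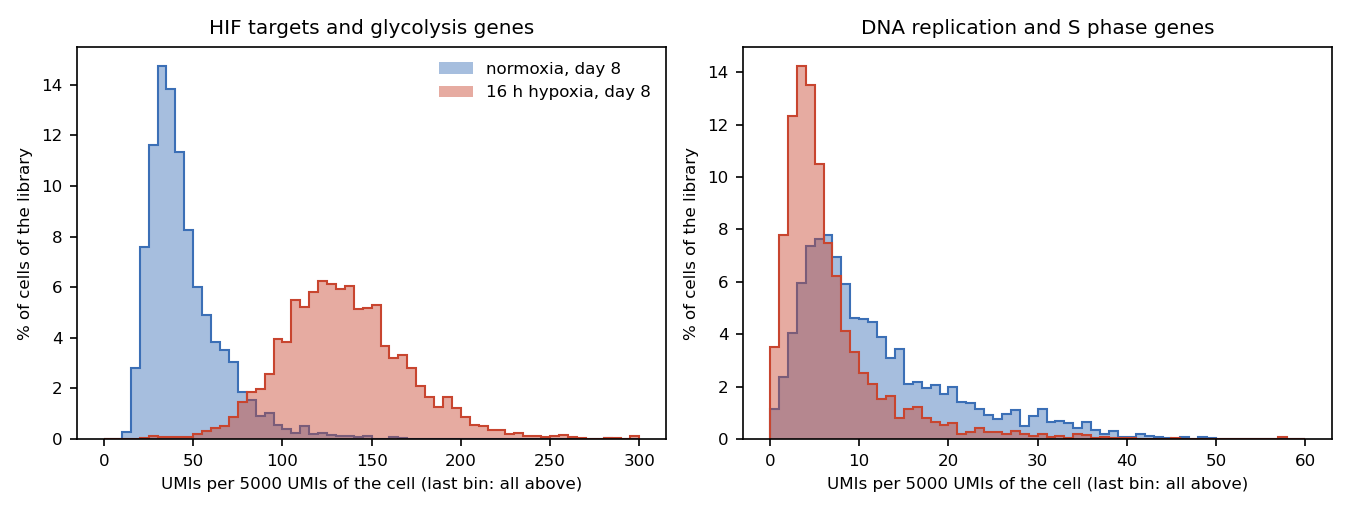
Distribution over cells of the summed UMIs of 2 gene sets after thinning each cell to 5000 UMIs, for the normoxic (3098 cells) and the hypoxic library (3179 cells). The vertical axis gives the percent of cells of each library; HIF target and glycolysis genes had medians of 39 and 132 UMIs with little overlap, and S phase genes of 9 and 4 with much overlap.

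Clusters were formed without the hypoxia, glycolysis, cell cycle, mitochondrial and ribosomal genes and named, after they were seen, where most markers of a type were higher than in the other cells. Endoderm-like, erythroid-like, smooth muscle-like, macrophage-like, megakaryocyte-like, endothelial-like, cardiomyocyte-like and pluripotent-like cells were found, next to 3 clusters named by a leading gene (Tbx4, Angptl7 and Rgs5) and other clusters that were pooled. Several of the pooled clusters nevertheless held mostly 1 library, with 11 normoxic and 816 hypoxic cells in 1 of them and 540 and 24 in another, so that the pooled clusters were compared as a whole. Clusters with fewer markers of a type were left unnamed, among them pooled clusters with 4 of 8 and 3 of 8 epicardial or mesothelial or 3 of 10 mesenchymal markers, and the Rgs5-rich cluster with 3 of 7 chondrocyte markers. The smooth muscle-like cells were also led by the stretch and inflammation genes Ankrd1, Ccl2 and Inhba. Endoderm-like cells were 6.34% of normoxic cells (5.52% to 7.25%) and 4.19% of hypoxic cells (3.53% to 4.92%), and erythroid-like cells 3.41% and 4.42%. The erythroid-like shares were 2.72% and 2.70% among cells with at least 2000 genes. The pooled clusters held 51.9% of normoxic and 41.0% of hypoxic cells, the Angptl7-rich cluster 8.87% and 13.8%, and smooth muscle-like cells 11.5% and 13.9%. The differences in shares were not tested. Hemoglobin transcripts outside erythroid-like cells, a gauge of free RNA, were at 188 CPM in normoxia and 302 CPM in hypoxia.

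The summed level of the 89 hypoxia genes was higher in hypoxia in every class, and classes with a high normoxic level had the smaller ratios. The log2 ratio was 1.85 in the Angptl7-rich cluster, 1.77 in the Tbx4-rich cluster, 1.75 in the pooled clusters and 1.62 in smooth muscle-like cells, whose normoxic levels lay between 7101 and 8308 CPM. It was 1.21 in the Rgs5-rich cluster, 1.17 in endoderm-like and 1.04 in erythroid-like cells, whose normoxic levels lay between 12147 and 13443 CPM. Among classes with under 50 cells in a library, which were described after the data were seen, it was 1.58 in megakaryocyte-like, 1.34 in endothelial-like and 1.01 in macrophage-like cells, 0.71 in cardiomyocyte-like cells, which had a normoxic level of 20462 CPM, and 0.44 in the 15 and 15 pluripotent-like cells. Ratio and starting level share the normoxic library, so their relation is a description. Counted over all genes with a mean of 20 CPM and 50 UMIs in the class, the calls differed in number between classes. Smooth muscle-like cells had 76 genes at least 2-fold higher (1.21%) and 29 lower (0.46%), the pooled clusters 153 (2.25%) and 120 (1.76%), and endoderm-like cells 181 (2.64%) and 104 (1.52%). The Tbx4-rich cluster had 150 (2.22%) and 154 (2.28%), the Angptl7-rich cluster 176 (2.7%) and 92 (1.41%), the Rgs5-rich cluster 295 (4.39%) and 565 (8.4%) and erythroid-like cells 290 (6.45%) and 376 (8.37%). Of these 7 classes the 2 with the fewest UMIs had the most calls. Per thinned cell the classes ended relatively closer to each other than they began, with medians of 33 to 65 UMIs in normoxia and 113 to 156.5 in hypoxia over the 7 larger classes.

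**Figure D4:**
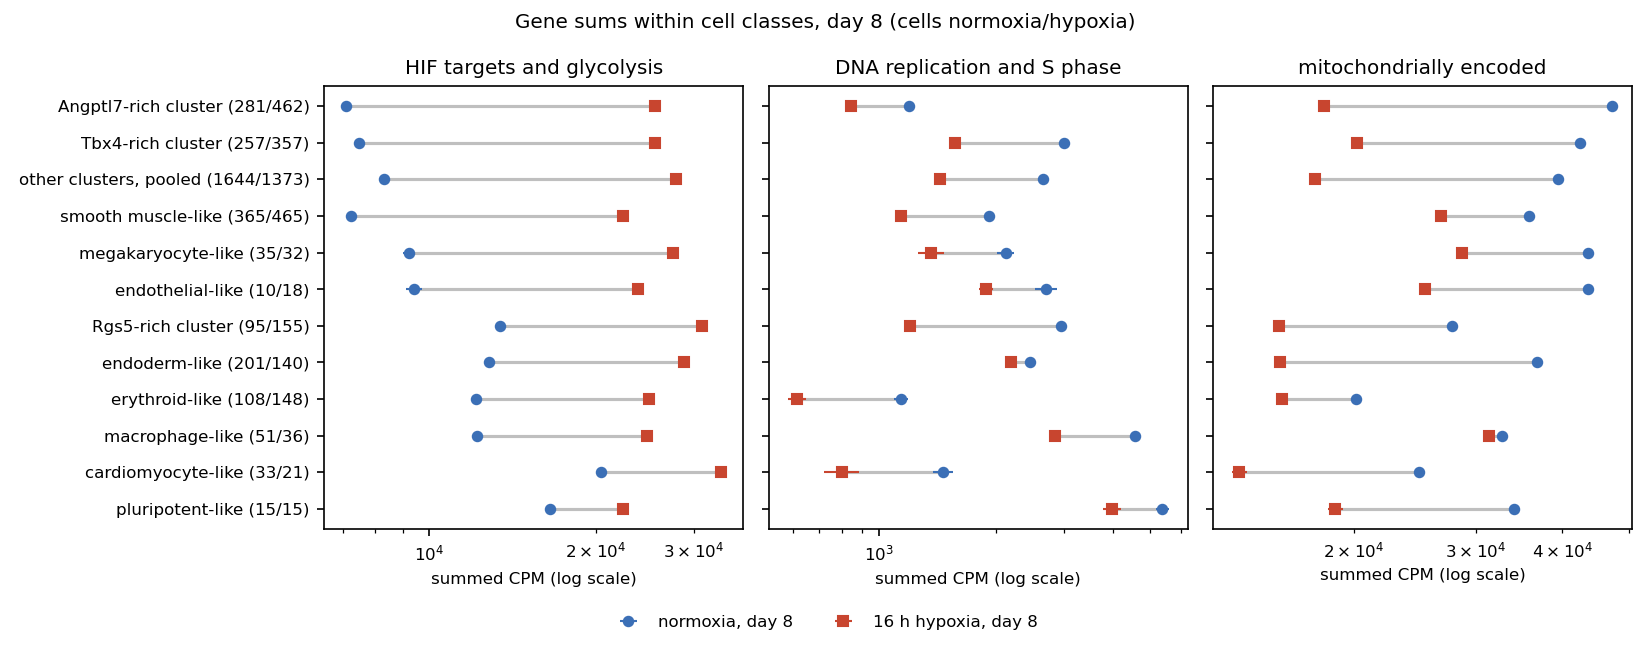
Summed CPM (log axes) of the 89 HIF target and glycolysis genes, of S phase genes and of mitochondrially encoded genes in each cell class, in normoxia (circles) and hypoxia (squares), with 95% Poisson intervals and the cell numbers in brackets. In the first panel every class lies higher in hypoxia, from a log2 ratio of 0.44 in pluripotent-like to 1.85 in Angptl7-rich cells.

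Single genes differed between classes in level and in ratio. Slc16a3 was at 16.4 CPM in normoxic and 323 CPM in hypoxic smooth muscle-like cells, and Bnip3 at 8.47 and 169 CPM and Pfkl at 15.9 and 218 CPM in the same cells. In endoderm-like cells Bnip3 had a log2 ratio of 1.05 and Slc2a3, already at 821 CPM in normoxia, reached 1256 CPM. In the Angptl7-rich cluster Slc2a3 was at 11.5 and 232 CPM. The ratio of this glucose transporter was thus lowest where its normoxic level was high. P4ha2 was higher in every class, with 16.5 and 169 CPM in endoderm-like and 130.4 and 658 CPM in Tbx4-rich cells. Among the larger classes hypoxic A2m was highest in the Tbx4-rich cluster (21.4 and 96.7 CPM) and lower in smooth muscle-like cells (0.542 and 8.34 CPM).

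Replication genes did not differ evenly over classes. The median log2 ratio of S phase genes was -1.35 in the Rgs5-rich cluster, with 28 of 37 genes at least 2-fold lower beside 8.4% of all genes in that cluster, and -0.998 in the Tbx4-rich cluster (18 of 37, beside 2.28%). It was -0.19 in endoderm-like cells, where none of 40 genes was 2-fold lower beside 1.52% of all genes. Rrm2 was at 39.99 and 39.2 CPM in endoderm-like cells but at 54.9 and 12.7 CPM in the pooled clusters. The pooled clusters included 1 led by mitosis genes such as Nusap1, Cenpf and Prc1, with 299 normoxic and 111 hypoxic cells. The part of this cell mix in the pooled values was not tested. The difference between classes was not tested, since each rests on 1 library per condition. The summed mitochondrially encoded transcripts had log2 ratios from -1.38 in the Angptl7-rich cluster to -0.35 in erythroid-like cells, and -0.06 in macrophage-like cells, where mt-Nd3 was still lower, at 979 and 526 CPM.

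Endoderm-like cells differed in their secretory products. The apolipoproteins Apoa1 (418 and 147 CPM), Apob (351 and 99.6 CPM) and Apoc2 (253 and 55.9 CPM), which carry lipid out of yolk sac and liver, were lower in hypoxia. Spink1 was at 3188 and 1232 CPM and Ttr, the thyroxine carrier, at 3299.7 and 1918 CPM, whereas Afp differed little, with 550.4 and 496 CPM. Ghrl, which encodes the hormone ghrelin, was higher at 344 and 1042 CPM, as was the keratin Krt19 at 269 and 691 CPM. Over all cells 4 of 6 yolk sac endoderm markers were at least 1.5-fold lower and none higher, with a median of -1.37, and 3 of 8 gut endoderm markers were lower and 1 higher, with a median of -0.48. Of all genes 10.3% were lower and 4.56% higher by as much. The summed levels were 763 and 526 CPM for yolk sac and 1499 and 1952 CPM for gut endoderm, where the keratins Krt8 and Krt18 made up most of the sum, and the part of this mix in the values of the class was not tested. Macrophage-like cells, 51 and 36, had 273 and 49.1 CPM of the mannose receptor Mrc1 and 377 and 225 CPM of the complement gene C1qb. In erythroid-like cells the heme oxygenase Hmox1 was at 6.65 and 114 CPM. Tenm3 (9.72 and 129.7 CPM) and Ptn (6.14 and 74.9 CPM) were higher there too. Both were at far higher levels in the hypoxic pooled clusters (620.4 and 388 CPM), no doublet caller was run, and the part of doublets in these values was not tested.

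The day 10 libraries, which share no library with those of day 8, give the same genes after 48 h in older embryoid bodies. Age and length of exposure both differ, each with 1 library, so no difference between the comparisons was tested. At day 10, 11% of the genes that averaged 5 CPM or more were higher by 1.5-fold or more and 43.2% lower by as much. HIF targets had a median of 1.05 there beside 1.6 at day 8, and S phase genes -1.72 beside -0.88. Slc2a1 had a log2 ratio of 2.3 at day 10 and 1.21 at day 8, Jmjd6 1.81 and 1.75, and Cox4i2 2.26 and 2.5. Glycogen and several glycolytic genes that were higher at day 8 had smaller ratios at day 10: Gys1 had a ratio of -0.01 there, Gbe1 -0.25, Aldoc -0.4, Tpi1 0.37, Pfkl 0.41 and Hk2 -0.31. A2m (-0.1) and Ndrg2 (0.02), among the highest at day 8, were level at day 10, and Lox was at 0.05 beside 1.65. Ddit4, Pdk1, Bnip3l and Mxi1 were higher in both comparisons, with day 10 ratios of 1.16, 0.82, 0.99 and 1.48.

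**Figure D5:**
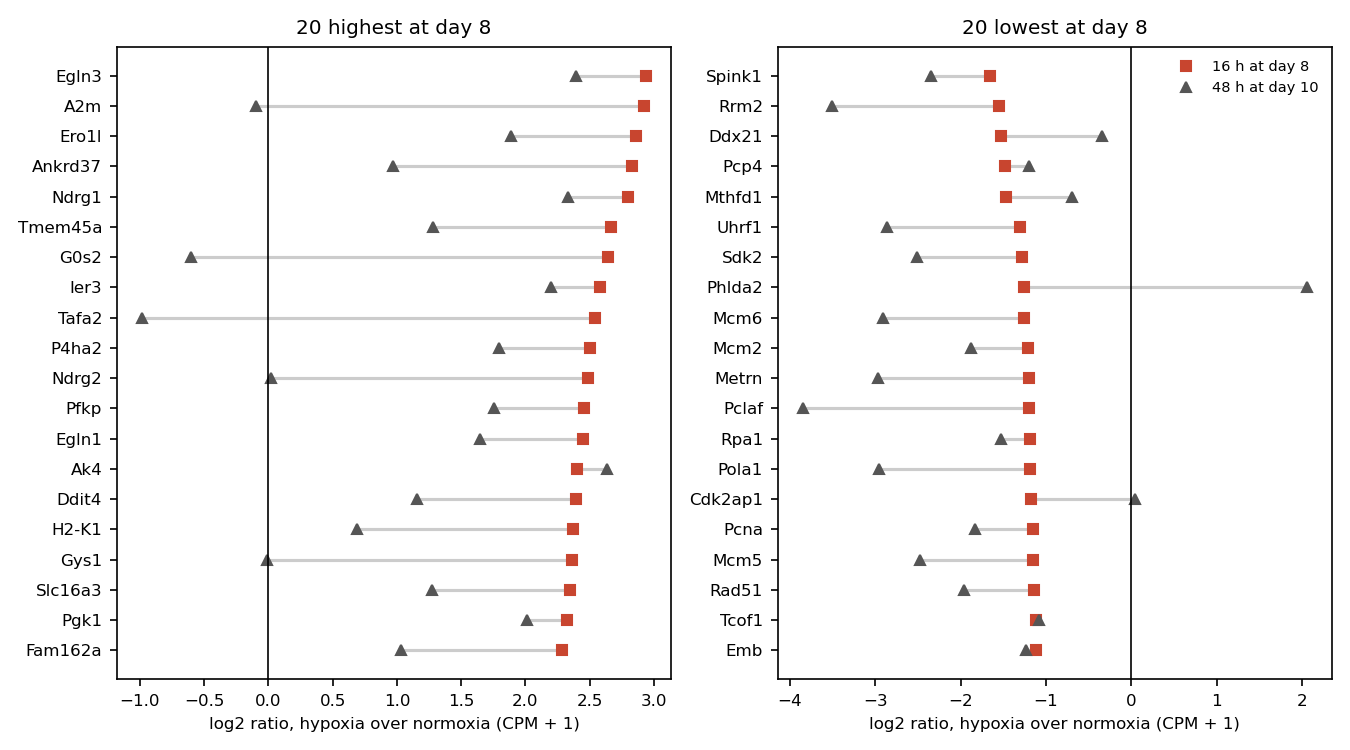
Log2 ratio of hypoxia over normoxia after 16 h at day 8 (squares) and after 48 h at day 10 (triangles) for the 20 genes with the highest and the 20 with the lowest ratio at day 8. Each comparison rests on its own 2 libraries; Gys1 lies at 2.36 and -0.01, and Phlda2 at -1.26 and 2.05.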

How the data were processed

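Single-cell RNA was measured in 4 libraries of mouse embryoid bodies, of which the 2 of day 8 are compared here. The authors deposited UMI counts per gene and cell barcode for 32285 genes, made with Cell Ranger 7.1.0 on mm10, per the submitters' processing notes. No source used here says if introns counted. Cells needed 500 genes and at most 15% mitochondrial UMIs. No doublet caller was run. Deposited counts were summed over cells, given per 1000000 UMIs of the library (CPM), and log2 ratios used a pseudocount of 1 CPM. Genes with a mean of 20 CPM were called at 2-fold and list members with a mean of 5 CPM at 1.5-fold. With 1 library per condition no test was made; Poisson and Clopper-Pearson intervals (95%) cover counting error only. The depth, 84938732 and 78062472 UMIs, bounds them. Cells were clustered on 2000 variable genes, 30 principal components, 15 neighbours and Leiden resolution 1 (scikit-learn 1.9.0, igraph 0.11.9, leidenalg 0.10.2). Other tools were matplotlib 3.10.9, pandas 2.3.3, scipy 1.17.1, numpy 2.4.6, Python 3.11.15 and, for TMM factors only, R 4.3.3 with edgeR 4.0.16. Coordinates and 32158 of the gene IDs come from GENCODE M21 on GRCm38, promoters from RefSeq.

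Named were the 20 highest and 20 lowest genes at 20 CPM (without mitochondrial, ribosomal protein and unnamed genes), up to 5 members per list or any of a list of at most 14, and the 4 highest and 4 lowest genes of a class at 20 CPM and 50 UMIs; every other gene was chosen after its values were seen. Gene lists and members were chosen with earlier results of these data known. Alternatives changed filter, pseudocount, scaling, cells, thinning and clustering. The scripts were checked on simulated data.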

Additional observations from a re-analysis of the deposited data

Results flagged for a closer look

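Some results differed in direction between the 16 h comparison at day 8 and the 48 h comparison at day 10, by at least 1.5-fold each way. With 1 library per condition these differences were not tested, and age and exposure differ together. G0s2, the lipase inhibitor, had a log2 ratio of hypoxia over normoxia of 2.65 at day 8 and -0.61 at day 10. Tafa2, the secreted chemokine-like protein, had 2.54 and -0.98. Phlda2, the imprinted growth regulator, had -1.26 at day 8 and 2.05 at day 10. The median over cardiomyocyte markers was -0.63 at day 8 and 0.77 at day 10.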

How the results depend on the processing

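No paired analysis was possible because each condition had 1 library. None of the 40 named genes changed sign over 440 alternatives, of which 238 stayed within the counting interval and 202 moved beyond it. That interval was computed without the added 1 CPM. For some genes low in normoxia the main ratio itself lay outside it, as for Egln3 (2.94, interval 2.98 to 3.23). The split is therefore not a measure of counting error alone. The 20 highest ran from 1.56 to 3.15 and the 20 lowest from -1.97 to -0.70. Of 585 alternative list medians, 552 stayed within an interval drawn from the ratios of the list's members and 33 moved beyond it. Such intervals are wide for short lists, and the median of glucose and lactate transporters ran from 0.16 to 1.62. Several lists with small medians changed sign in at least 1 setting, among them Atf4 targets (0.11, lowest -0.16) and antioxidant genes (-0.18, highest 0.04). The counts of 116 higher and 65 lower genes became 189 and 14 with TMM scaling, 141 and 34 centred on the median gene, 89 and 22 with a pseudocount of 10 CPM, 73 and 23 at 50 CPM, and 243 and 361 without a filter. Leaving out the pooled clusters, chosen after seeing the data, gave 101 and 73, of which 91 and 37 were shared, and leaving out the shallow clusters, likewise, 117 and 66. The S phase median became -0.61 with a pseudocount of 10 CPM, -0.67 with TMM, -0.76 centred and -0.78 with the normoxic mix of classes, and at 20 CPM 26 of 36 members were lower. Hypoxic cells above the normoxic 95th percentile of hypoxia genes were 95.9% when thinned to 10000 UMIs. Those below the 5th percentile of mitochondrially encoded genes were 47.7% at 10000 UMIs and 35.4% unthinned. Erythroid-like shares became 2.72% and 2.70% at 2000 genes. At clustering resolution 0.5 the class named cardiomyocyte-like by its leading genes held 139 normoxic and 157 hypoxic cells, so it is not the class of 33 and 21 cells. No Angptl7-rich, Rgs5-rich or pluripotent-like class was found at that resolution, so the results of these classes depend on it. Depth limits statements on small classes and on genes near 1 CPM; library, embryoid body culture and condition cannot be told apart.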
